A study of Mus musculus with 4 samples.

Results

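The p53 pathway was examined in mouse brown adipocytes through 10 genes: p53 itself (Trp53), its inhibitor Mdm2, and the targets Cdkn1a, Gadd45a, Zmat3, Eda2r, Pmaip1, Trp53inp1, Ccng1 and Sesn2. Members were all probe sets that the platform annotation pairs with exactly 1 of these symbols. This gave 15 probe sets for 9 of the 10 genes, out of 28898 probe sets with 1 symbol and 17097 genes. No probe set carries Trp53 as its only symbol in the annotation used here, so the p53 transcript was not analysed here. The control cells carried a scramble shRNA (a short hairpin RNA without a target) and the knockdown cells a hairpin against Blnc1, a long noncoding RNA of brown fat, and RNA was taken from all after 6 days of differentiation. Each group had 2 arrays, called biological replicates by the labels, and so small a number sets the precision of what follows. The labels give no strain, age, cell line or number of hairpins, and no probe set names Blnc1, so the knockdown itself was not analysed here. The comparison asks which transcripts change when Blnc1 is depleted.

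p53 is a transcription factor that is held at a low level by Mdm2, a ubiquitin ligase that marks it for degradation. Stress such as DNA damage frees p53, which then raises the transcription of genes that stop the cell cycle, repair DNA, limit growth or start cell death. Mdm2 is one of these targets, which closes a feedback loop. Several members, among them Gadd45a, Sesn2 and Pmaip1, can also be raised by other stress factors such as ATF4. In fat cells, p53 activity is known from ageing and obesity, and the amount of p53 is set mostly by the stability of the protein, which arrays do not measure.

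Promoter sequences are shown for 4 members whose transcripts rose together, Gadd45a, Ccng1, Mdm2 and Eda2r, and for Cdkn1a, the best-known p53 target, which did not pass the test. For Cdkn1a only the window of the upstream of its 2 start sites is printed. The downstream window, chr17:29093519-29093818, held 0 p53 half-sites and is not printed. Each window holds 300 bases, 250 before and 50 after a RefSeq start site, and is printed 5′ to 3′ along the gene (RefSeq, build GRCm38.p6). Capitals mark matches, on either strand, to the p53 half-site, the CCAAT box (CCAAT), the octamer (ATTTGCAT), the GC box (GGGCGG), the FOXO site (GTAAACA) and the TATA box (TATAAA).
Gadd45a promoter, chr6:67037358-67037657, minus strand: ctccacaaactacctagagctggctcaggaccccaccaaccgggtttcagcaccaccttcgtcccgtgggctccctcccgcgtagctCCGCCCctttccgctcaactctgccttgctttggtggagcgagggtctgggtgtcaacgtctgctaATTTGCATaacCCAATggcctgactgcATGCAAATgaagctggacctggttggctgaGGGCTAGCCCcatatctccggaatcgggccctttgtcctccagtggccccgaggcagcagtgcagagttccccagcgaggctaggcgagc
Ccng1 promoter, chr11:40755237-40755536, minus strand: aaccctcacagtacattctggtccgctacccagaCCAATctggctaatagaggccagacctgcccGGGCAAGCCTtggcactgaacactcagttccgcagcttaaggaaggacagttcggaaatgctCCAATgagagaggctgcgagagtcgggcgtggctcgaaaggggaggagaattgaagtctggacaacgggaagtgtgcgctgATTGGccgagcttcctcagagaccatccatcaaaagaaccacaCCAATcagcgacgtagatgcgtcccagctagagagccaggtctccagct
Mdm2 promoter, chr10:117710709-117711008, minus strand: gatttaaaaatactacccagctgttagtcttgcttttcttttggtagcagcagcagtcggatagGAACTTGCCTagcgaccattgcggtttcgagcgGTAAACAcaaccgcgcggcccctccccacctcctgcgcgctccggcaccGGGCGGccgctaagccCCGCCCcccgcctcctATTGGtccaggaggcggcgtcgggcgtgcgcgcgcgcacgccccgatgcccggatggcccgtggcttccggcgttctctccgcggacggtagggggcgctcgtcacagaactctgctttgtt
Eda2r promoter, chrX:97377160-97377459, minus strand: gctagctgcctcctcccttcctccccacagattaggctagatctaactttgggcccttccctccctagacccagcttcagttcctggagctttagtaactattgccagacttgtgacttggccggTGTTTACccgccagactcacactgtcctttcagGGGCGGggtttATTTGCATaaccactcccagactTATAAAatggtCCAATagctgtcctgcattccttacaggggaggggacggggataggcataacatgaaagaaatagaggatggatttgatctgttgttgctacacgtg
Cdkn1a promoter, chr17:29090729-29091028, plus strand: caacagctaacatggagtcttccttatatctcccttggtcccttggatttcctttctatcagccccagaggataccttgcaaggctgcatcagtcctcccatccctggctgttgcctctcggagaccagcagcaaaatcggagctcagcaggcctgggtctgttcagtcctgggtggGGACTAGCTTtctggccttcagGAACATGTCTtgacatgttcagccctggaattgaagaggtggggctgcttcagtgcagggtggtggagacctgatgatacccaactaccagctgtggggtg

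Windows were found for 7 of the 10 genes, 8 windows in all because Cdkn1a has 2 start sites. No window was used for Zmat3, Trp53inp1 and Pmaip1. The p53 half-site, the repeated unit of the element that p53 binds as a tetramer, matched in the windows of Gadd45a, Ccng1, Mdm2, Trp53 and the upstream start of Cdkn1a. That is 5 of 8 windows, against 8.36% of all 32851 windows of this length. The members were chosen as p53 and its well-known targets, so this share describes their windows and tests nothing. In Gadd45a the match, gggctagccc, began 40 bases before the start site. In Ccng1 it was gggcaagcct, 185 bases before the start, and in Mdm2 gaacttgcct, 186 bases before it. The upstream Cdkn1a window held 2 matches, ggactagctt at 73 and gaacatgtct at 51 bases before its start, and the downstream Cdkn1a window held 0. Gadd45a also held 2 octamers, at 97 and 70 bases before the start with a CCAAT box between them, and Eda2r held 1 octamer at 81 bases before its start. The octamer occurs in 1.74% of all windows, the CCAAT box in 37.4%, the GC box in 35.7%, the FOXO site in 3.65% and the TATA box in 13.6%. The cAMP response element (TGACGTCA, 1.79% of windows) and the C/EBP-ATF response element (TTGCATCA, 0.895%) matched in 0 of the 8 member windows. Matches in these windows did not overlap one another, both strands were searched, and they are letters in a sequence, not measured binding.

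**Figure D1:**
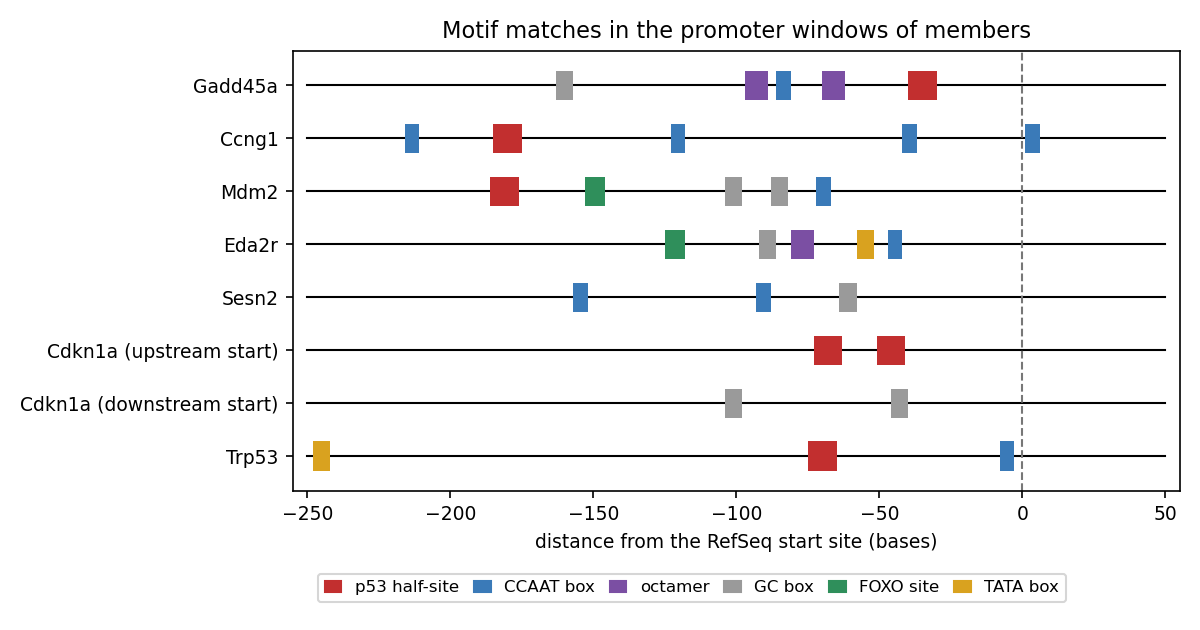
Motif matches along the 8 promoter windows of members, as distance in bases from the RefSeq start site (dashed line at 0), with 1 row per window and 1 coloured block per match. Red blocks, the p53 half-site, stand in 5 of the 8 windows, and the downstream start of Cdkn1a has GC boxes only.

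Of the 9 measured members, 6 rose and 1 fell in the Blnc1 knockdown arrays, and 2 were not called. The members that rose were Gadd45a (4.06-fold), Pmaip1, Zmat3 (2.16-fold), Eda2r (2.12-fold), Ccng1 (1.51-fold) and Mdm2 (1.47-fold). Trp53inp1 fell 1.37-fold, and Cdkn1a and Sesn2 had log2 fold changes of -0.08 and 0.03. A gene is represented here by its brightest probe set, and called where the limma adjusted p over all genes is below 0.05. Among all 17097 genes 18.5% were called, 11.4% as higher and 7.18% as lower, and among the members 77.8% were called. At an unadjusted limma p under 0.05, 2975 of all genes were higher and 2801 lower, the background for the unadjusted counts below. The median log2 fold change was 0.59 over the members and -0.04 over all genes. The preadipocyte and fibroblast markers, described next, had a median of 0.80 with 83.3% called. Since members were chosen with earlier results of these data known, these shares describe them and test nothing. The direction of calls over all genes moved with the scaling, with 1941 higher and 1228 lower as deposited, 1514 and 1564 after quantile normalization, and 2383 and 844 after median centring of the arrays. The members were 6 higher and 1 lower under all of these scalings.

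Several measures that are not part of the pathway moved with the groups, and their part in the members' changes was not tested. For Actb the log2 ratio of its 3' over its 5' control probe set, which rises when RNA is broken, was 0.99 and 1.15 in scramble and 1.77 and 1.88 in knockdown. The middle 18S ribosomal RNA probe set averaged 4.78 in scramble and 6.82 in knockdown, while the 18S 3' probe set overlapped between the groups, at 7.21 and 6.38 in scramble and 6.92 and 7.47 in knockdown. Of 6 measured brown adipocyte markers, all were above the background log2 value of 2.55 in both groups. In knockdown 4 were lower, Cidea, Ucp1, Cox8b and Cox7a1, with log2 fold changes of -2.01, -1.87, -0.88 and -0.60. Adipoq and Fabp4 were not called, at 0.07 and 0.02, though 1 dimmer Fabp4 probe set had -0.69 and another 0.15. The log2 of the summed linear level, mostly Fabp4 and Adipoq, was 13.35 to 13.41 in scramble and 13.27 to 13.28 in knockdown. Of 6 measured preadipocyte and fibroblast markers 5 were higher in knockdown. Col1a1, Pdgfra, Dlk1 and Thy1 had log2 fold changes of 1.74, 1.00, 0.59 and 0.52, and Cd34 was at background in scramble. Dpp4 was not called, though a dimmer Dpp4 probe set was called as lower, with knockdown at background. The log2 of the summed linear level went from 6.94 to 7.08 in scramble to 8.15 to 8.16 in knockdown. Within that sum, the mean of Col1a1 went from 5.59 to 7.33. Of 9 hepatocyte markers 7 were lower in knockdown, with 7.70 to 7.93 in scramble and 5.90 to 6.42 in knockdown, and Tat and Fgb were at background in both groups. Of the macrophage, endothelial and skeletal muscle markers, 1 of 6, 1 of 5 and 0 of 6 were higher and 0 were lower by limma, and at an unadjusted p under 0.05 the counts of lower markers were 1, 0 and 0. Their summed log2 levels were 5.66 to 5.67, 5.22 to 5.23 and 5.37 to 5.40 in scramble and 5.75 to 5.85, 5.22 to 5.34 and 5.37 to 5.41 in knockdown, with Ptprc, Lyz2, Cdh5, Emcn and Tnnt3 at background in both groups. Many others of these markers lay close to background, so the sums had little room to fall and do not show unchanged levels. Of 2 measured erythroid markers 1 was lower. Beside these marker counts, 11.4% of all genes were called as higher and 7.18% as lower. In such bulk samples, fewer cells of a type and less RNA per cell cannot be told apart.

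Mdm2, the inhibitor of p53 and itself a p53 target, rose on both of its probe sets. Its brightest probe set (1423605_PM_a_at, Entrez Gene 17246) read 5.43 and 5.43 in scramble and 6.01 and 5.96 in knockdown. The groups lay apart by 0.53, against an SD within the knockdown group of 0.04 (n = 2). The log2 fold change was 0.56 (95% interval 0.33 to 0.79; limma adjusted p = 0.0108). The dimmer probe set (1427718_PM_a_at) read 3.39 and 3.45 in scramble and 3.96 and 4.10 in knockdown. Its log2 fold change of 0.62 was close to that of the first, with an adjusted p over all probe sets of 0.012. The call on Mdm2 was lost without knockdown replicate 1 (limma adjusted p = 0.0825) and without knockdown replicate 2 (0.0678), with log2 fold changes of 0.53 and 0.59.

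Gadd45a, a growth arrest and DNA damage gene whose product binds cell cycle kinases and a MAP kinase kinase kinase, had the largest change of the members. Its only probe set (1449519_PM_at, Entrez Gene 13197) read 4.57 and 5.09 in scramble and 6.81 and 6.89 in knockdown. The knockdown arrays were both high and close together (SD 0.05, n = 2), the scramble arrays differed more (SD 0.37, n = 2), and the groups were separated by 1.73. The log2 fold change was 2.02 (95% interval 1.62 to 2.43; limma adjusted p = 0.00092), which ranked 26 from the top among the 17097 genes. Leaving out each array in turn gave log2 fold changes of 1.76 to 2.28 and adjusted p-values of 0.000494 to 0.00692. The 3 genes outside the members whose centred values over the 4 arrays lay nearest to Gadd45a were Gpat3, a glycerol phosphate acyltransferase gene, Arrdc4, an alpha-arrestin gene, and Pappa, which encodes a protease of IGF binding proteins. Their Euclidean distances were 0.22, 0.24 and 0.27 log2 units. With 4 arrays in 2 groups, this likeness describes the difference between the groups and little else.

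Ccng1, which encodes cyclin G1, a partner of a phosphatase that acts on Mdm2, rose on each of its 3 probe sets. The brightest (1420827_PM_a_at, Entrez Gene 12450) read 8.32 and 8.39 in scramble and 8.91 and 8.99 in knockdown, a log2 fold change of 0.59 (95% interval 0.35 to 0.83; limma adjusted p = 0.00982). A second probe set (1450017_PM_at) read 5.54 and 5.66 in scramble and 6.81 and 6.83 in knockdown. There the groups lay 1.15 apart, and the change was 2.33-fold (log2 1.22, adjusted p over all probe sets 0.00114). The other (1450016_PM_at) read 5.85 and 6.00 in scramble and 6.45 and 6.34 in knockdown, a log2 fold change of 0.47 (adjusted p over all probe sets 0.0327). The probe sets thus gave the same direction and sizes from 0.47 to 1.22, and the difference between them was not tested. The call on the brightest was lost without knockdown replicate 1 (limma adjusted p = 0.0533) and without knockdown replicate 2 (0.0817). The probe set with the 2.33-fold change kept an adjusted p of 0.00213 to 0.0118 with each array left out.

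**Figure D2:**
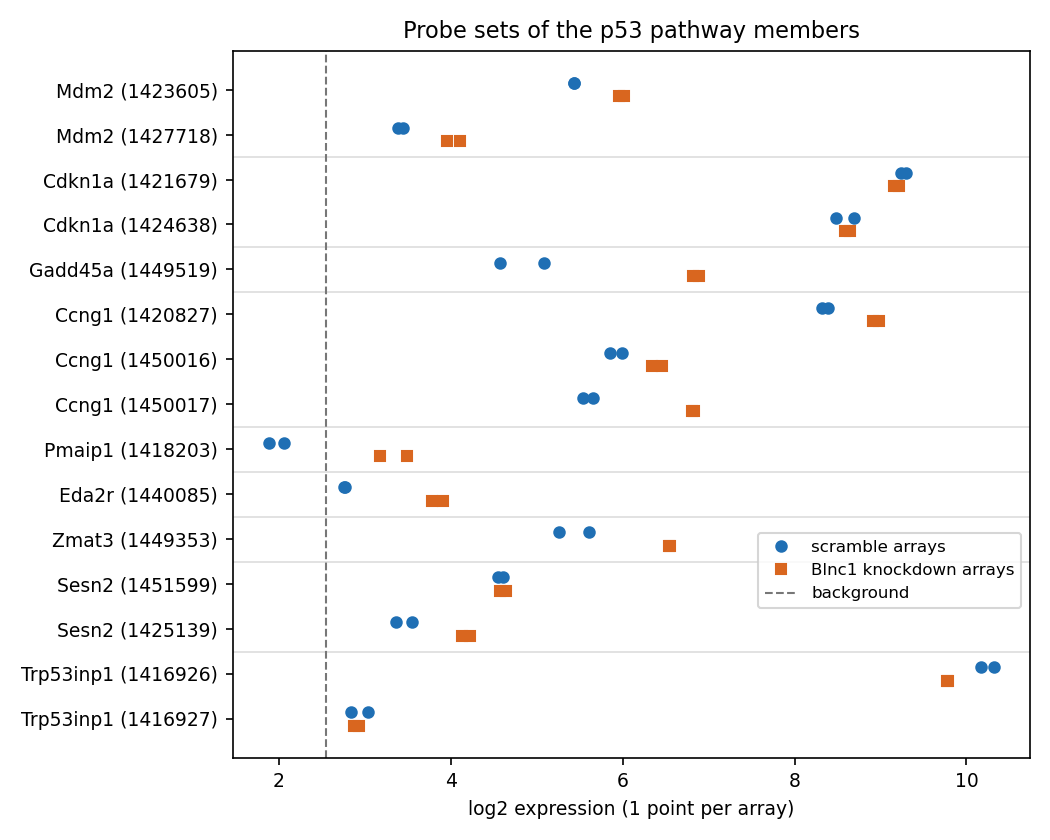
Log2 expression of the 15 member probe sets, with 1 circle per scramble array, 1 square per Blnc1 knockdown array, and the background log2 value of 2.55 as a dashed line. Gadd45a, Pmaip1, Eda2r, Zmat3 and Ccng1 show knockdown squares to the right of the scramble circles, while within each probe set of Cdkn1a the circles and squares lie close together.

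Cdkn1a, which encodes the cyclin-dependent kinase inhibitor p21, was measured by 2 bright probe sets, and neither passed the test. The brightest (1421679_PM_a_at, Entrez Gene 12575) read 9.30 and 9.24 in scramble and 9.21 and 9.16 in knockdown. Its groups were 0.03 apart, with the knockdown arrays on the lower side. The log2 fold change was -0.08 (95% interval -0.32 to 0.15; limma adjusted p = 0.601). The other probe set (1424638_PM_at) read 8.48 and 8.69 in scramble and 8.58 and 8.65 in knockdown, so its groups overlapped, with a log2 fold change of 0.03 (95% interval -0.24 to 0.30). The upper ends of these intervals, 0.15 and 0.30, lie below the lower end of the interval of Gadd45a, 1.62, which does not show that the level of Cdkn1a was equal in the groups.

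Among the members linked to cell death, Pmaip1 and Eda2r both rose from low levels. Pmaip1 encodes Noxa, a BH3-only protein that binds Mcl1. Its probe set (1418203_PM_at, Entrez Gene 58801) read 2.06 and 1.88 in scramble, at background, and 3.18 and 3.49 in knockdown, above it. Against the background log2 value the knockdown mean was at least 1.73-fold higher. The fitted log2 fold change of 1.36 (95% interval 1.04 to 1.69; limma adjusted p = 0.00154) rests on scramble values below background. Eda2r encodes a receptor of the tumour necrosis factor receptor family that binds ectodysplasin A2. Its probe set (1440085_PM_at, Entrez Gene 245527) read 2.75 and 2.77 in scramble, just above background, and 3.91 and 3.79 in knockdown. The groups were separated by 1.01, and the log2 fold change was 1.09 (95% interval 0.84 to 1.33; limma adjusted p = 0.00127). For Pmaip1 and Eda2r the adjusted p stayed between 0.0026 and 0.0123 with each array left out. The genes nearest to Pmaip1 in their centred values were Fam217b, Hs6st2 and N4bp1, but both scramble values of Pmaip1 lie below background, so these distances have no exact size and are not given.

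Zmat3 encodes a zinc finger protein that binds RNA and acts on splicing and transcript stability downstream of p53. Its probe set (1449353_PM_at, Entrez Gene 22401) read 5.61 and 5.25 in scramble and 6.55 and 6.54 in knockdown. The knockdown arrays lay close together and the scramble arrays less so (SD 0.25, n = 2), and the groups were separated by 0.93. The log2 fold change was 1.11 (95% interval 0.79 to 1.44; limma adjusted p = 0.00288). It ran from 0.94 to 1.29 with each array left out, with adjusted p-values of 0.00155 to 0.0219.

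Sesn2 and Trp53inp1, members that link p53 to nutrient and oxidative stress, gave different answers from their probe sets. Sesn2 encodes sestrin 2, a leucine sensor that restrains the growth kinase complex mTORC1. Its brightest probe set (1451599_PM_at, Entrez Gene 230784) read 4.55 and 4.60 in scramble and 4.57 and 4.64 in knockdown, with overlapping groups and a log2 fold change of 0.03 (95% interval -0.21 to 0.27; limma adjusted p = 0.871). The dimmer probe set (1425139_PM_at) read 3.36 and 3.55 in scramble and 4.22 and 4.13 in knockdown, and rose 1.65-fold (log2 0.72, adjusted p over all probe sets 0.0085; 0.0611 without knockdown replicate 1). With the mean of both probe sets, Sesn2 was called as higher (log2 0.37, limma adjusted p = 0.0314). Which of these follows the transcript was not tested. Trp53inp1 encodes a stress protein that takes part in p53 activation and autophagy. Its brightest probe set (1416926_PM_at, Entrez Gene 60599) was the brightest of the members, at 10.16 and 10.32 in scramble and 9.78 and 9.79 in knockdown, and fell by 0.46 on the log2 scale (95% interval -0.71 to -0.21; limma adjusted p = 0.0268). The other probe set (1416927_PM_at) read 2.84 to 3.04 over the 4 arrays, just above background, with overlapping groups and a log2 fold change of -0.04. The call on Trp53inp1 was lost without scramble replicate 2 (limma adjusted p = 0.07), without knockdown replicate 1 (0.136) or replicate 2 (0.138), and with the mean of both probe sets (0.116, log2 fold change -0.25).

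Taken probe set by probe set, 10 of the 15 rose, 1 fell and 4 did not pass an adjusted p of 0.05 over all 45037 probe sets, of which 14.1% were called. The groups did not overlap for 12 of the 15, against 58.9% of all probe sets. Without knockdown replicate 1 or replicate 2, 6 of the 15 were called and 4 of the 9 genes, namely Gadd45a, Zmat3, Eda2r and Pmaip1. The number of called genes over the whole table fell at the same time, from 3169 to 1232 and 1050.

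**Figure D3:**
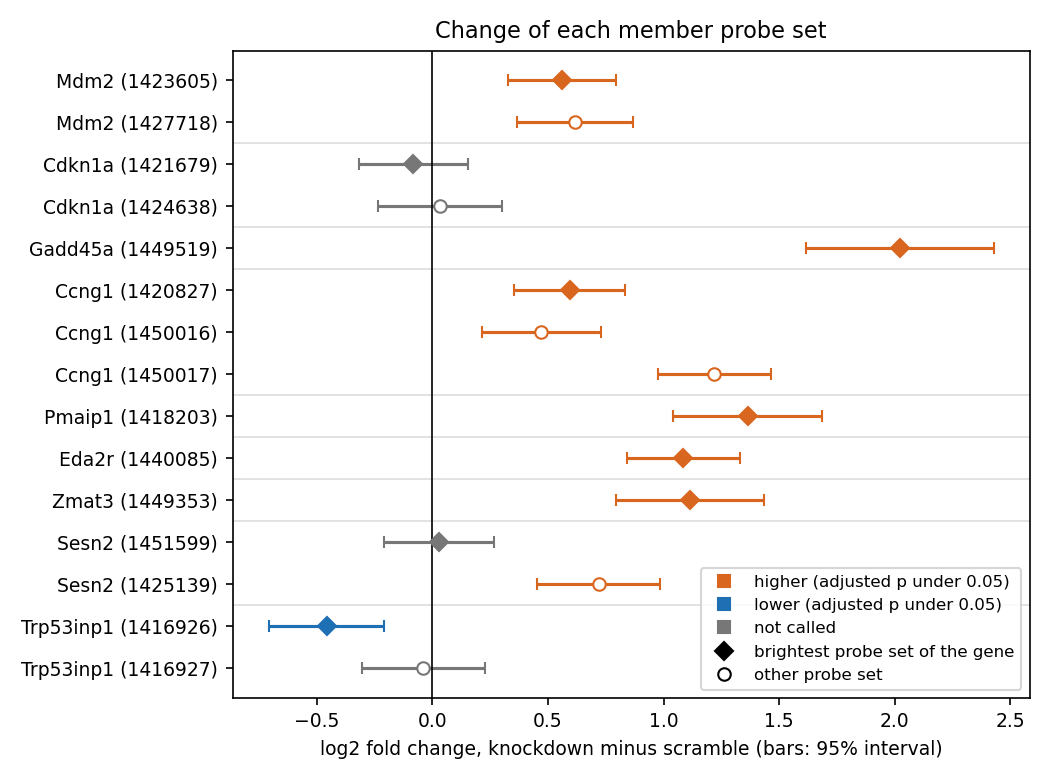
Log2 fold change (knockdown minus scramble) of each member probe set with its 95% interval from limma, with filled diamonds for the brightest probe set of a gene and open circles for the others. Gadd45a stands farthest to the right at 2.02, the 2 probe sets of Cdkn1a straddle 0, and those of Sesn2 do not cover the same range.

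Of 20 measured genes that control p53, limma called 3 as higher and 0 as lower (15%, against 18.5% of all genes), and the median log2 fold change was 0.08. At an unadjusted p under 0.05, 7 were higher and 1 was lower, against 2975 and 2801 of all 17097 genes. Crebbp, an acetyltransferase gene, rose 2.44-fold from 4.74 and 3.99 to 5.73 and 5.57 (limma adjusted p = 0.0109; 0.0549 without knockdown replicate 1). Cdkn2a, whose locus encodes the kinase inhibitor p16 and the Mdm2 inhibitor ARF, rose 2.21-fold from 7.85 and 7.80 to 8.80 and 9.14 (limma adjusted p = 0.00256). Its annotation does not tell which of those products the probe set reads. Ppm1d, a phosphatase gene that ends the p53 response, rose 1.45-fold (limma adjusted p = 0.0197), and lost its call without scramble replicate 1 (0.0515), without either knockdown replicate (0.131 and 0.0584) and after quantile normalization (0.0731). A second Ppm1d probe set gave 0.31 on the log2 scale (adjusted p over all probe sets 0.329).

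Of 37 other p53 targets that were measured, 9 were higher and 2 lower (29.7% called, against 18.5% of all genes), and the median log2 fold change was 0.06. At an unadjusted p under 0.05, 9 were higher and 5 lower, against 2975 and 2801 of all 17097 genes. Without knockdown replicate 1, and likewise without replicate 2, 5 were higher and 0 lower. The count of lower targets was 1 without scramble replicate 1 and after median centring, 4 after quantile normalization and without the dimmest 40% of probe sets, and 5 with trended eBayes. Among the 16 targets of arrest and DNA repair, 5 were higher and 0 lower by limma (31.2% called), and at an unadjusted p under 0.05 there were 5 and 2. Psrc1, a spindle protein gene, rose 2.30-fold (limma adjusted p = 0.00666), although its 2 dimmer probe sets were not called, 1 with a log2 fold change of 0.08 and 1 with scramble at background. Ckap2, a cytoskeleton gene of dividing cells, rose 1.81-fold (limma adjusted p = 0.00348), and Plk2, a stress-induced polo-like kinase gene, rose 1.75-fold (limma adjusted p = 0.00718; 0.05 without knockdown replicate 2). Polk, a translesion DNA polymerase gene, rose 1.46-fold (limma adjusted p = 0.0172; 0.0759 and 0.117 without knockdown replicates 1 and 2). The fifth was the excision repair gene Ercc5, at 1.43-fold (limma adjusted p = 0.0142), named after its value was seen.

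Among the 14 measured targets of cell death, 3 were higher and 1 lower (28.6% called, against 18.5% of all genes), and the median was -0.05. Apaf1, the scaffold of the apoptosome, rose 2.30-fold from 4.62 and 4.90 to 5.87 and 6.04 (limma adjusted p = 0.00204), while a dimmer Apaf1 probe set was at background in both groups. Steap3, a metalloreductase gene, rose 1.80-fold (limma adjusted p = 0.00473). Phlda3, whose product restrains Akt, rose 1.52-fold (limma adjusted p = 0.00879; 0.0559 and 0.0712 without knockdown replicates 1 and 2). Bid, a BH3-only gene, fell 1.32-fold (limma adjusted p = 0.0392), and lost its call without scramble replicate 1 (0.105), without knockdown replicate 1 (0.187) or replicate 2 (0.17), after median centring (0.0658) and when its probe sets were averaged (0.0677). Of the 7 measured targets of metabolism, 1 was higher and 1 lower. Cpt1c, a carnitine palmitoyltransferase isoform gene, rose 1.79-fold (limma adjusted p = 0.0196; 0.104 without knockdown replicate 1). Pank1, a pantothenate kinase gene of coenzyme A synthesis, gave opposite directions, since its brightest probe set went from 7.63 and 7.57 to 6.95 and 7.01 (fell by 0.62 on the log2 scale, limma adjusted p = 0.00774; 0.0638 and 0.051 without knockdown replicates 1 and 2) and its other probe set from 4.32 and 3.98 to 5.57 and 5.75.

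**Figure D4:**
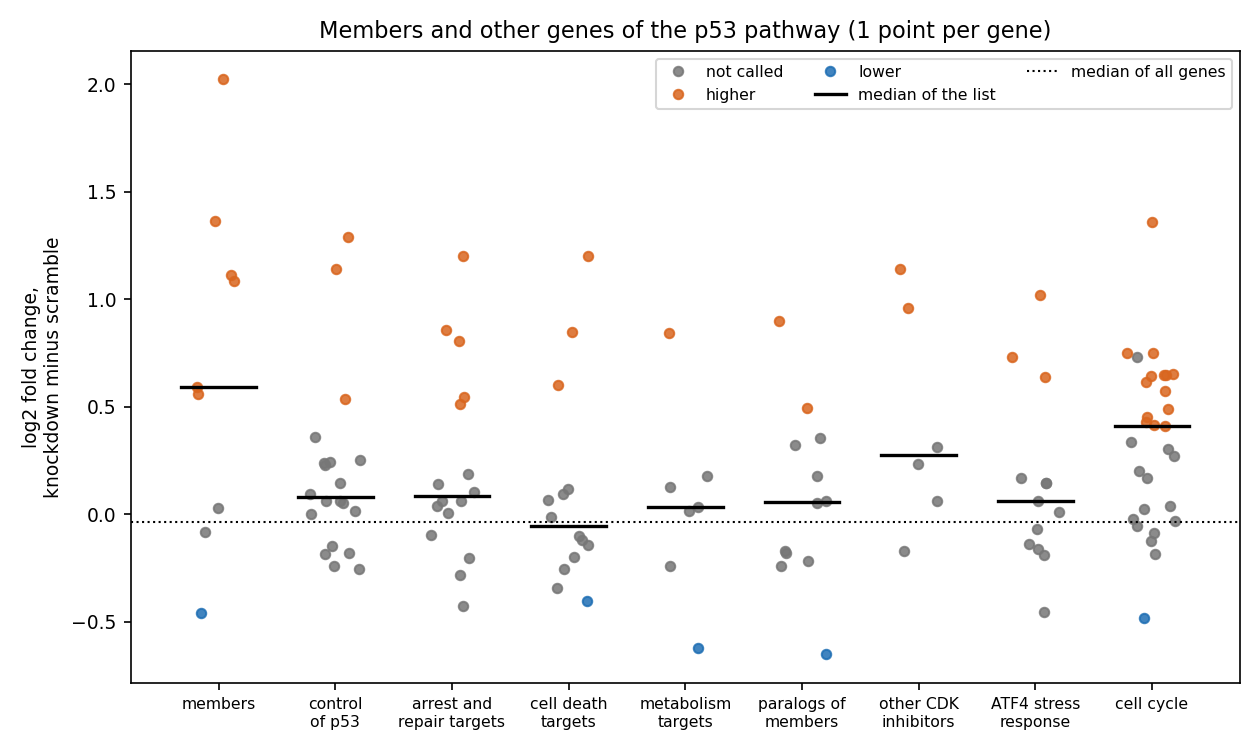
Log2 fold change (knockdown minus scramble) of the 9 measured members and of the other lists, with 1 point per gene, coloured by the limma call, a bar at the median of each list and a dotted line at the median of all genes (-0.04). The median of the members, 0.59, lies above that of the p53 control list (0.08), the target lists (-0.05 to 0.08) and the cell cycle list (0.41), and below that of the preadipocyte and fibroblast markers (0.80), which are not plotted.

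Of 12 paralogs of the members, 2 were higher, 1 was lower and 9 were not called (25% called, against 18.5% of all genes). In the Gadd45 family, Gadd45b rose 1.41-fold (4.89 and 4.57 to 5.23 on both knockdown arrays; limma adjusted p = 0.0403), while Gadd45g fell 1.57-fold, from 7.81 and 7.59 to 7.01 and 7.08 (limma adjusted p = 0.0114). Gadd45g lost its call without either knockdown replicate (0.0767 and 0.0596). Gadd45b lost it without scramble replicate 2 (0.0975), without either knockdown replicate (0.156 and 0.167) and after quantile normalization (0.0931). Among the sestrins, Sesn3 rose 1.87-fold, from 5.71 and 5.40 to 6.45 and 6.46 (limma adjusted p = 0.00513), and Sesn1 had a log2 fold change of 0.18. Ccng2, the other G-type cyclin gene, gave 0.35 on the log2 scale (limma adjusted p = 0.0888; 0.0479 without scramble replicate 1 and 0.0447 with the mean of its probe sets), and Trp53inp2 of 0.32 (limma adjusted p = 0.0686; 0.0384 after median centring). Mdm4, the Mdm2 relative, had a log2 fold change of 0.05, which was -0.12 after quantile normalization. The p53 relative Trp63 had a log2 fold change of -0.24 and Edar of -0.22, both close to background, and the p53 relative Trp73 was not called, with knockdown at background. Of the p21 relatives, Cdkn1c had 0.06 (-0.07 after quantile normalization) and Cdkn1b -0.17, but a second Cdkn1b probe set went from 2.71 and 2.63 to 4.63 and 4.83 (log2 2.06, adjusted p over all probe sets 0.000467).

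Genes that act beside the members were read from further lists. Of 6 other inhibitors of cyclin-dependent kinases, 2 were higher (33.3% called, against 18.5% of all genes). They were Cdkn2a and its neighbour Cdkn2b, which rose 1.94-fold from 6.54 and 6.43 to 7.41 and 7.47 (limma adjusted p = 0.00191). The count of lower genes was 0 by limma, and 0 at an unadjusted p under 0.05. Of 29 measured cell cycle genes, 14 were higher, 1 was lower (Cdk4, named after its value was seen) and 14 were not called (51.7% called, against 18.5% of all genes, of which 11.4% were higher); the median log2 fold change was 0.41. The preadipocyte markers rose in the same arrays, and their part in this was not tested. The mitotic kinase gene Aurkb rose 2.57-fold (limma adjusted p = 0.000611), with a second probe set at 0.20. On their brightest probe sets the D-type cyclin genes Ccnd2 and Ccnd1 each rose 1.68-fold (limma adjusted p = 0.00373 and 0.0186). Ccnd1 lost its call without scramble replicate 1 and without knockdown replicate 2. The other Ccnd2 probe sets above background had log2 fold changes of 0.18, 0.25, 0.53 and 1.54, of which only the last was called. For Ccnd1 the others had 0.59, not called, and 1.69, called. Cdc25c, a phosphatase gene of mitotic entry, rose 1.57-fold (limma adjusted p = 0.0124; 0.0848 without knockdown replicate 1). Of 8 measured partners of the Gadd45 proteins, 0 were called by limma, and at an unadjusted p under 0.05 there was 1 higher and 1 lower.

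Of 13 measured ATF4 stress genes, limma called 3 as higher and 0 as lower (23.1% called, against 18.5% of all genes). With an unadjusted p under 0.05, 3 were higher and 1 was lower, against 2975 and 2801 of all 17097 genes. The median log2 fold change was 0.06. The serine synthesis genes Psat1 and Phgdh rose 2.03-fold and 1.56-fold (limma adjusted p = 0.00171 and 0.0246), and the stress factor gene Nupr1 rose 1.66-fold (limma adjusted p = 0.00775; 0.0581 without knockdown replicate 1). Phgdh lost its call without scramble replicate 1 (0.0641), without either knockdown replicate (0.138 and 0.0591) and after quantile normalization (0.0615). Of 4 genes listed with the ectodysplasin pathway beside Eda2r, 0 were higher and 1 was called as lower (25% called, against 18.5% of all genes). It was the receptor gene Tnfrsf19, with both groups at background, so no fold is given. The ligand gene Eda, Edar and Edaradd were not called on their brightest probe sets. At an unadjusted p under 0.05 there were 0 higher and 1 lower.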

How the data were processed

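Gene expression was measured on Affymetrix mouse MG-430 PM strip arrays, in 2 scramble and 2 Blnc1 knockdown samples. The deposited values are log2 intensities per probe set, 1 table for the series; limma, affy and RMA are named without versions in the submitters' processing notes, and the background and summary settings are not given in the sources used here. Of 45141 probe sets, 104 controls were left out. The remaining 45037 were fitted with lmFit and eBayes (limma 3.58.1, R 4.3.3) on both groups, with Benjamini-Hochberg adjustment over 45037 probe sets, or over 17097 genes at their brightest probe set. Intervals are 95% intervals of the moderated fit, with 2 residual and 4.93 prior degrees of freedom, and the median standard error was 0.11. Background is the highest log2 value on any array of the antigenomic control probe sets with 3 to 24 G or C bases, 2.55. For Pmaip1, whose scramble values lay at background, the fold is a bound against that value. An exact permutation test of 2 against 2 arrays cannot go below p = 0.333, so none was used. Each limma p-value sets the difference between the groups against the spread among these arrays, moderated by that of all probe sets.

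Members and lists were chosen with earlier results of these data known. Besides the members, called genes were named from each list in order of size of change, up to 4 a list, with all paralogs, and for Gadd45a and Pmaip1 the 3 nearest genes by Euclidean distance of centred log2 values. Promoter windows came from RefSeq (GRCm38.p6), matched by symbol. The code of the fit was run on simulated data with independent noise, which does not model the difference in RNA quality between these groups. Figures were drawn with matplotlib 3.10.9. Alternatives were quantile normalization, median centring, trended and robust eBayes, a replicate block, leaving out the dimmest 40% of probe sets, other summaries of a gene's probe sets, and leaving out each array.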

Additional observations from a re-analysis of the deposited data

How the results depend on the processing

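With each array left out in turn, 4 to 7 member genes, 6 to 10 member probe sets, 6 to 15 other p53 pathway genes and 1050 to 2841 of all genes were called, the lowest counts without either knockdown array, and the count of lower members was 0 to 1. A single array left in a group was assumed to vary like the other group. Averaging the probe sets of a gene left 0 lower members. Trended eBayes called 20 of the other pathway genes and leaving out the dimmest 40% of probe sets called 17; that filter left out Pmaip1. Deviations of same-numbered arrays correlated at r = 0.04, so the numbers were not taken as pairs; with the replicate block 7 member genes, 11 member probe sets, 14 other pathway genes and 3179 of all genes were called. Under the replicate block and under robust eBayes no named gene or probe set changed direction or its side of the threshold, and each count stayed within 1.5 times its value, that of all genes at 3098 with robust eBayes.

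The following values changed direction, and the cause was not tested. After quantile normalization the log2 fold change was -0.066 for Sesn2 (1451599_PM_at), -0.069 for Cdkn1c, -0.12 for Mdm4, -0.028 for Cdkn1a 1424638_PM_at and 0.029 for Trp53inp1 1416927_PM_at, the last 0.026 after median centring. Averaging the probe sets gave 0.95 for Cdkn1b and 0.44 for Pank1. The brightest specific probe set gave 0.032 for Cdkn1a, -0.11 for Mdm4 and 0.31 for Tnfrsf19, whose probe sets are at background in both groups, so that its direction cannot be read. Leaving out each array in turn gave log2 fold changes of -0.0035 to 0.061 for Sesn2 (1451599_PM_at), -0.065 to 0.19 for Cdkn1c, -0.034 to 0.14 for Mdm4, -0.58 to 0.098 for Trp63, -0.071 to 0.14 for Cdkn1a 1424638_PM_at, which was -0.0017 without knockdown replicate 2, and -0.14 to 0.061 for Trp53inp1 1416927_PM_at. Signal limits Pmaip1, whose scramble values are below background, and Eda2r and Trp53inp1 1416927_PM_at, which lie just above it.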
